A study of Rattus norvegicus with 4 samples.

Results

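The 42 genes described here encode voltage-gated sodium channels, voltage-gated calcium channels with their auxiliary subunits, channels that release calcium from internal stores, calcium pumps, and 3 TRPC cation channels, in rat brain. They were chosen by symbol and role, with no threshold on a measured value but with earlier results of these data known, and were looked up among the 15443 genes that the probes of the array name. Of the 42 genes, 39 have a named probe, and Cacna1d, Ryr1 and Ryr3 were not analysed here because no probe was named for them. All 39 were kept for the comparisons within a tissue or state, and 38 were well above background on all 4 arrays and entered the fit across arrays. The remaining gene, Cacng4, was not well above background on the depressive cerebellum array.

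RNA came from male rats whose immobility in the forced swimming test, a score of depressive-like behaviour, had been measured in 106 normal animals. Depressive rats were those with depressive-like behaviour and control rats those with an average score, so both states had gone through the swimming test, and no drug or genetic change is named in the labels. There were 4 groups with 1 array each: depressive cerebellum, control cerebellum, depressive prefrontal cortex and control prefrontal cortex. Each array carried a pool of equal RNA amounts from 4 rats, and the labels give neither strain nor age. The animals were killed 1 week after the test, and each tissue was a single coronal slice level, 9.8 to 10.8 mm behind the bregma for cerebellum and 3.2 to 4.2 mm in front of it for prefrontal cortex. A pool has no spread between animals, so each difference within a tissue or a state describes 2 pools with no replicate check, and in pieces of whole tissue fewer cells of a type and less RNA per cell cannot be told apart. The arrays were of 1 colour (Cy3) and sat on 1 slide scanned once. Signals printed below are the processed signals of the brightest probe of a gene, averaged over its spots. Signals and their sums are not scaled between arrays, so their order can differ from that of the log2 differences. Differences are on the log2 scale after each array's 75th percentile (4369.5 for depressive cerebellum, 4020 for control cerebellum, 3278 for depressive prefrontal cortex, 3116 for control prefrontal cortex) was subtracted, and the SE printed with a difference between 2 arrays is that between repeated spots, which is technical.

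The tissue labels were set against marker genes. All 10 cerebellum markers were at least 2-fold higher in cerebellum than in prefrontal cortex in both states, with a median log2 difference of 5.93 in depressive and 5.76 in control rats. Of 9 cerebral cortex markers on the array, 8 were lower in cerebellum by 2-fold or more in each state, with medians of -4.76 and -4.20. Arrays were assigned to samples by the deposited value table, because 2 scanner files, one linked to control prefrontal cortex and one to depressive cerebellum, carry each other's values (r of 0.999979 and 0.999892 with the matching file, 0.933161 and 0.932784 with the linked one). With files taken as linked, 0 of 39 channel and pump genes differ by 2-fold between tissues in either state.

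Sodium channels open on depolarisation and carry the upstroke of the action potential. Calcium channels turn depolarisation into calcium entry, which drives transmitter release and gene expression, and their beta, alpha2delta and gamma subunits set how many channels reach the membrane and how they gate. Calcium is then returned to the endoplasmic reticulum by SERCA pumps and out of the cell by plasma membrane (PMCA) pumps. In the cerebellum, Purkinje cells are known for strong calcium signalling of this kind.

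Promoter sequence is shown for 4 genes at the far ends of the tissue comparison, those with the largest fitted difference among the 28 members that have a single promoter entry. The entries are from RefSeq, build GRCr8, and run from 250 bases before to 50 after the annotated start, 5′ to 3′ on the gene's strand. They lie at chr10:58080402-58080701 (plus strand) for Atp2a3, chr2:140501046-140501345 (plus) for Trpc4, chr1:186632312-186632611 (plus) for Cacng3 and chr3:70666149-70666448 (minus) for Scn3a. Capitals mark matches on either strand to a GC box (GGGCGG) or to the E-box CAGCTG.
Atp2a3: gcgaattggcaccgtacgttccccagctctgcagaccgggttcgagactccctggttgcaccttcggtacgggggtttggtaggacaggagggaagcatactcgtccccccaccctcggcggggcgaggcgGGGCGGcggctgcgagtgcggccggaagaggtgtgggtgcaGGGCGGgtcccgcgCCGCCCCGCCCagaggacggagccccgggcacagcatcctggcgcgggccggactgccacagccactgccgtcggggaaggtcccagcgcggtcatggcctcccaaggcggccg
Trpc4: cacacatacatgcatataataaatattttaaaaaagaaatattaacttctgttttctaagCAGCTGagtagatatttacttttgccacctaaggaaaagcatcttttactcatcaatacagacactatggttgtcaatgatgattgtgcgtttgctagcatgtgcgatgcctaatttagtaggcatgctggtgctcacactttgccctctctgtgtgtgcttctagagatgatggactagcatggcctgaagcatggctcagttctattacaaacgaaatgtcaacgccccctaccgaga
Cacng3: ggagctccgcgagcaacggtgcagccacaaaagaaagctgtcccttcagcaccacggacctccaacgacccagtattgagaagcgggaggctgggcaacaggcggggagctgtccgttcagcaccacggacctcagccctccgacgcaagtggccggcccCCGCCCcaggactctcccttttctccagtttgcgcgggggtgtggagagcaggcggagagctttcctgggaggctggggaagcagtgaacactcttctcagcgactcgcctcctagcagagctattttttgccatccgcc
Scn3a: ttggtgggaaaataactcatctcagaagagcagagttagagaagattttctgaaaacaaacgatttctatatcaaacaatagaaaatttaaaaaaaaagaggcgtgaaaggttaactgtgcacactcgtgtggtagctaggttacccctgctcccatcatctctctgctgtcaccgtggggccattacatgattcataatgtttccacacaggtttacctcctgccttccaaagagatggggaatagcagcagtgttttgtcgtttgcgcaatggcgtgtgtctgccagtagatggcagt

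The Atp2a3 sequence holds 4 GC box matches, of which a pair on the minus strand overlap by 1 base, and has a GC content of 72.7%. Cacng3 holds 1 GC box and has a GC content of 63%. Trpc4 holds 1 E-box at a GC content of 39.7%, and Scn3a holds no match to the searched motifs at a GC content of 43.3%. A GC box was found in 16 of the 28 members' promoters (57.1%) and in 33.1% of all 33469 promoter entries of the same length. The E-box was found in 5 of 28 (17.9%), against 15.1% of all entries, and the letters TATAAA, which overlap neither motif, in 1 of 28 (3.57%), against 14.2%. The 28 members were limited to genes with a single entry, while the shares over all entries were not, so the sets were chosen differently. These counts describe letters in a window and say nothing about a factor.

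The first comparison asked how the channels and pumps differ between cerebellum and prefrontal cortex. The SERCA pump gene Atp2a3 had the largest tissue difference of the members and was higher in cerebellum, and the PMCA pump gene Atp2b3 and the T-type channel gene Cacna1g were also higher there. Lower in cerebellum were sodium channel genes (Scn3a, Scn8a, Scn3b), calcium channel pores (Cacna1b, Cacna1h), 4 of the beta and TARP subunits (Cacnb1, Cacnb3, Cacng3, Cacng8), a pair of alpha2delta subunits (Cacna2d1, Cacna2d3), a pair of PMCA pumps (Atp2b1, Atp2b4) and the TRPC channels Trpc4 and Trpc5. These 18 genes differed by at least 2-fold in both states, 3 of 39 higher and 15 of 39 lower in cerebellum. Among all 12499 genes measured, 8.02% were 2-fold higher and 13% were 2-fold lower in both states (21.1% in all). Counted per state, 19 of 39 members differed by 2-fold in depressive rats (3 higher, 16 lower), where 24.3% of all genes did (9.29% higher, 15% lower), and 19 of 39 in control rats (4 higher, 15 lower), where 24% did (9.86% higher, 14.2% lower). The median size of the log2 difference was 0.93 over members and 0.47 over all genes in depressive rats, and 0.87 over members and 0.47 over all genes in control rats.

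Each tissue has 2 arrays when the states are pooled, and a limma fit of tissue with state as a block was made across 11624 genes. At a Benjamini-Hochberg adjusted p under 0.05, 32 of 38 members differed between tissues, 12 higher and 20 lower in cerebellum. That fit calls 72.8% of all genes (34.7% higher, 38% lower), and 75.6% at an unadjusted p under 0.05, where 33 of 38 members stood, so the share called says little about the members and the sizes say more. The fit has 1 residual degree of freedom, and it treats the depressive and control pools as replicates of a tissue. All adjusted p-values below come from it.

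**Figure D1:**
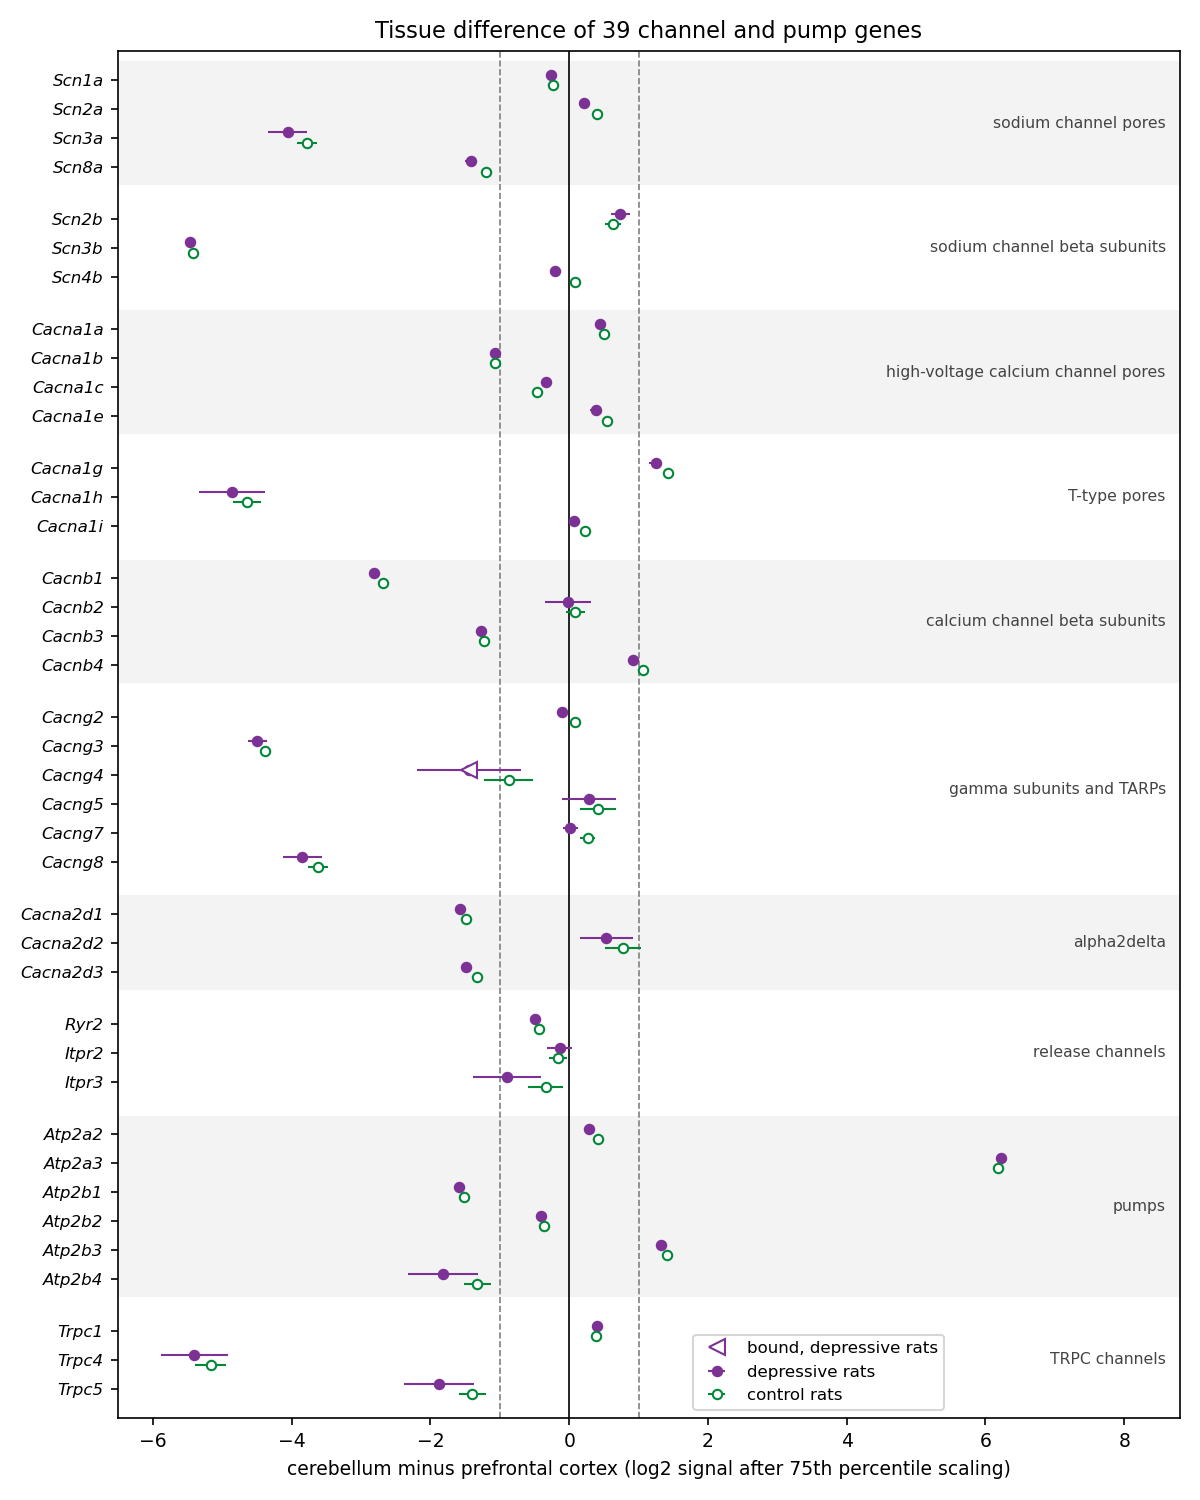
Log2 difference between cerebellum and prefrontal cortex for the 39 genes, grouped by role, in depressive rats (filled) and control rats (open), with bars for the SE between spots and dashed lines at 2-fold. Atp2a3 lies alone at the right (6.22 and 6.18), while Scn3b, Trpc4, Cacna1h, Cacng3, Scn3a and Cacng8 lie furthest left, and the arrowhead marks Cacng4, whose value in depressive rats is a bound.

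Among the 4 sodium channel pores, 3 were lower and 1 was higher in cerebellum by the fit. Scn3a, a pore best known from the embryonic and newborn brain, had a signal of 147 on the depressive and 158 on the control cerebellum array, against 1842 on the depressive and 1681 on the control prefrontal cortex array. Both cerebellum arrays were far below both cortex arrays, by 16.6-fold in depressive rats (log2 difference -4.06, SE 0.28) and 13.7-fold in control rats (-3.78, SE 0.14). Scn8a, the pore of axon initial segments and nodes of Ranvier, had 802 and 824 in depressive and control cerebellum, against 1609 and 1463 in depressive and control prefrontal cortex. It was 2.67-fold lower in cerebellum in depressive rats (-1.42, SE 0.08) and 2.29-fold lower in control rats (-1.20, SE 0.06), with no overlap between tissues. Adjusted p was 0.00026 for Scn3a and 0.00116 for Scn8a. The other pores stayed within 2-fold: Scn1a, mutated in people with Dravet syndrome, fell in cerebellum by 0.25 on the log2 scale (SE of the fit 0.05, adjusted p = 0.0183), and Scn2a, a pore of excitatory neurons' axons, rose by 0.31 (SE 0.07, adjusted p = 0.0245).

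The sodium channel beta subunits went separate ways. Scn3b, which associates with the pore without a covalent bond, had 1726 and 1642 in depressive and control cerebellum, against 57304 and 54516 in depressive and control prefrontal cortex. The tissues lay far apart in both states, with cerebellum 44.3-fold lower in depressive rats (-5.47, SE 0.07) and 42.8-fold lower in control rats (-5.42, SE 0.05), with an adjusted p of 0.000174. Scn2b, a subunit joined to the pore by a disulphide bond, was higher in cerebellum (485 and 507 in depressive and control cerebellum, against 218 and 254 in depressive and control prefrontal cortex), by a fitted log2 difference of 0.68 (SE 0.06, adjusted p = 0.0023). Scn4b, linked to resurgent sodium current in Purkinje cells, had 12733 and 12384 in depressive and control cerebellum, against 10963 and 9053 in depressive and control prefrontal cortex. Its tissue difference was -0.20 in depressive and 0.08 in control rats (SE 0.02 each), opposite in sign, and the fit did not call it (adjusted p = 0.601).

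Of the 4 high-voltage calcium channel pores on the array, 2 were called higher and 2 lower, and 1 passed 2-fold. Cacna1b, the N-type pore of presynaptic terminals, had 5041 and 4543 in depressive and control cerebellum, against 7939 and 7395 in depressive and control prefrontal cortex. It was 2.10-fold lower in cerebellum in both states (-1.07, SE 0.03 in depressive and 0.02 in control rats, adjusted p = 0.000728). This lies just past the threshold: with quantile normalization the difference was -0.99 in both states, under 2-fold. With median scaling it was -0.97 in depressive rats, under 2-fold, and -1.01 in control rats. The P/Q-type pore Cacna1a, the main calcium channel of Purkinje cells, rose by 0.47 in cerebellum (SE 0.05, adjusted p = 0.00415), and its dimmer probe gave 0.93 in depressive and 1.09 in control rats. The R-type pore Cacna1e rose by 0.46 (SE 0.07, adjusted p = 0.00816), and the L-type pore Cacna1c fell by 0.40 (SE 0.06, adjusted p = 0.00889).

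T-type pores open at low voltage and support burst firing, and their 3 genes split in direction. Cacna1g, strong in Purkinje cells, had 7752 and 8078 in depressive and control cerebellum, against 2452 and 2324 in depressive and control prefrontal cortex. Both cerebellum arrays were above both cortex arrays, by 2.37-fold in depressive rats (1.25, SE 0.09) and 2.69-fold in control rats (1.43, SE 0.07), with an adjusted p of 0.000922. Cacna1h had 85.9 and 104 in depressive and control cerebellum, against 1867 and 2011 in depressive and control prefrontal cortex. The cerebellum arrays were near the dim end for this gene, 29.0-fold lower in depressive rats (-4.86, SE 0.48) and 25.0-fold lower in control rats (-4.65, SE 0.20), with an adjusted p of 0.000198. After another background correction (normexp) the differences of Cacna1h were -3.91 and -3.82. The third gene, Cacna1i, was not called (0.15, SE 0.06, adjusted p = 0.112). The T-type values above rest on 1 spot per array. A dimmer probe on 2 spots gave 1.22 in depressive and 1.38 in control rats for Cacna1g, and -0.12 and -0.01 for Cacna1i. Cacna1h had no further probe.

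**Figure D2:**
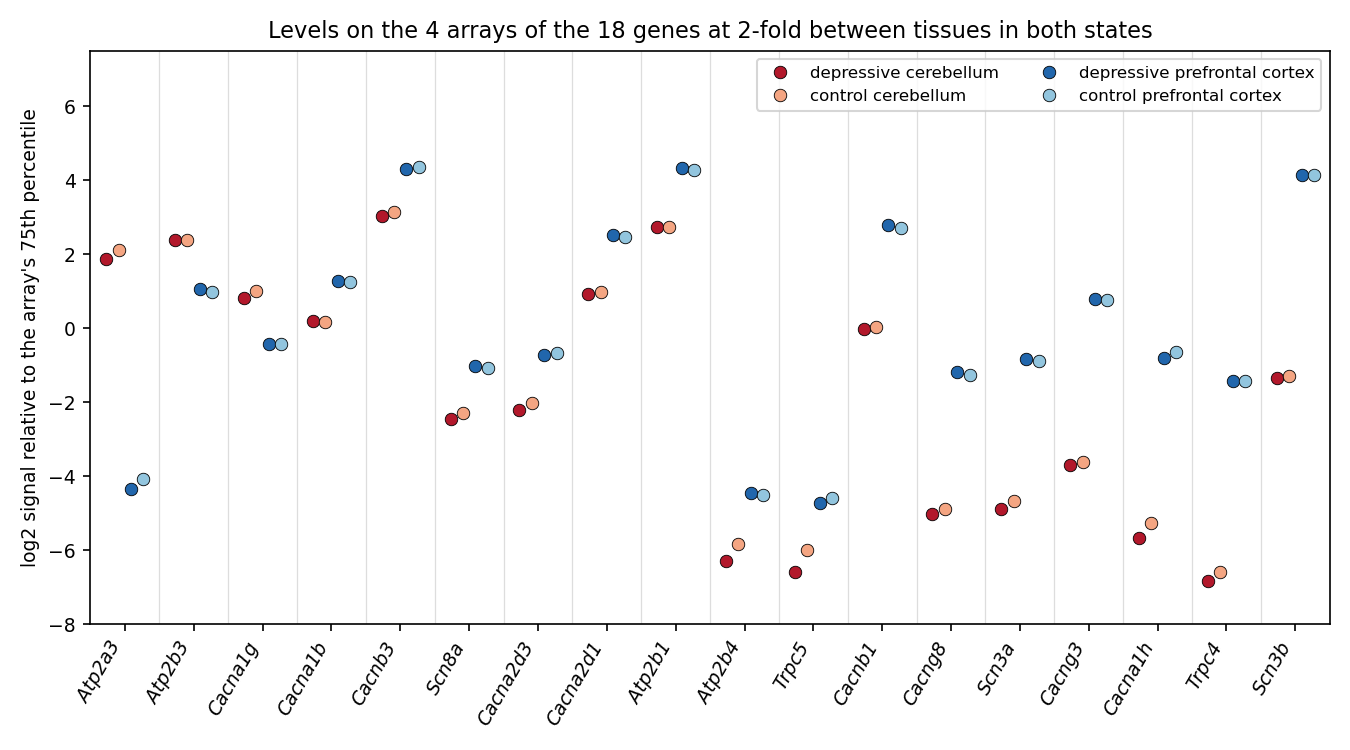
Level of the 18 genes that differ by at least 2-fold between tissues in both states, as log2 signal relative to the array's 75th percentile, on the depressive cerebellum (dark red), control cerebellum (light red), depressive prefrontal cortex (dark blue) and control prefrontal cortex (light blue) arrays. In each gene the red points lie apart from the blue ones, and the points of 1 tissue lie close together, least so for Atp2b4 and Trpc5 in cerebellum; levels of different genes come from different probes and are not comparable.

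The cytosolic beta subunits of calcium channels, which carry the pore to the membrane, also differed in direction. Cacnb1 had 4293 and 4081 in depressive and control cerebellum, against 22668 and 20343 in depressive and control prefrontal cortex. It was 7.04-fold lower in cerebellum in depressive rats (-2.82, SE 0.06) and 6.43-fold lower in control rats (-2.68, SE 0.05), the most of this group, with an adjusted p of 0.000252. Cacnb3 had 35505 and 35463 in depressive and control cerebellum, against 64367 and 64362 in depressive and control prefrontal cortex. Its cerebellum signals were lower in both states, 2.42-fold in depressive rats (-1.27, SE 0.06) and 2.34-fold in control rats (-1.23, SE 0.05), with an adjusted p of 0.000596. The control value came to -0.99 after quantile normalization. Cacnb4, whose loss causes ataxia in the lethargic mouse, had 22912 and 20458 in depressive and control cerebellum, against 9046 and 7560 in depressive and control prefrontal cortex. It was higher in cerebellum and lay on the 2-fold line, at 1.90-fold in depressive rats (0.93, SE 0.05) and 2.10-fold in control rats (1.07, SE 0.04), with an adjusted p of 0.00127. Cacnb2 was dim (128 to 176) and was not called (0.04, SE 0.06, adjusted p = 0.606).

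The Cacng genes on the array include the TARPs, which carry AMPA-type glutamate receptors to synapses. Cacng3 had 333 and 327 in depressive and control cerebellum, against 5638 and 5324 in depressive and control prefrontal cortex. The cerebellum arrays were far lower, 22.5-fold in depressive rats (-4.49, SE 0.13) and 21.0-fold in control rats (-4.39, SE 0.07), with an adjusted p of 0.000174. Cacng8, a TARP of forebrain synapses, had 133 and 135 in depressive and control cerebellum, against 1442 and 1285 in depressive and control prefrontal cortex. It was 14.4-fold lower in cerebellum in depressive rats (-3.85, SE 0.28) and 12.3-fold lower in control rats (-3.62, SE 0.15), again with no overlap (adjusted p = 0.000245). Cacng2 encodes stargazin, the TARP whose loss removes AMPA receptors from cerebellar granule cells in mice. Bright in both tissues, it had 51949 and 51842 in depressive and control cerebellum, against 41726 and 37946 in depressive and control prefrontal cortex, with a fitted difference of -0.01 (SE 0.07, adjusted p = 0.923). Cacng7 was not called (0.14, SE 0.08, adjusted p = 0.205).

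The dimmest members of the group were less certain. Cacng5 was dim (37.9 to 67.8 over the 4 arrays) and was called higher in cerebellum at 0.35 (SE 0.06, adjusted p = 0.0125), but the value was -0.02 and the call was lost after normexp (adjusted p = 0.739). Cacng4 had 27.9, not well above background, and 42 in depressive and control cerebellum, against 56.9 and 59.5 in depressive and control prefrontal cortex. In depressive rats it was 2.72-fold lower in cerebellum (-1.44, SE 0.75), a bound computed from the probe's own dim signal. It differed by -0.87 (SE 0.35) in control rats, on 1 spot, and after normexp the value in depressive rats was -0.73, under 2-fold.

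Alpha2delta subunits sit outside the membrane and raise the surface level of calcium channels. Cacna2d1, the main binding site of gabapentin, had 8328 and 7894 in depressive and control cerebellum, against 18617 and 17198 in depressive and control prefrontal cortex. It was 2.98-fold lower in cerebellum in depressive rats (-1.58, SE 0.06) and 2.81-fold lower in control rats (-1.49, SE 0.04), with an adjusted p of 0.000469. Cacna2d3 had 951 and 995 in depressive and control cerebellum, against 1996 and 1939 in depressive and control prefrontal cortex. It was 2.80-fold lower in depressive rats (-1.48, SE 0.08) and 2.51-fold lower in control rats (-1.33, SE 0.06), with an adjusted p of 0.000729. Cacna2d2, mutated in the ataxic ducky mouse, went the other way at a low signal (44.7 to 98.7), by 0.66 (SE 0.08, adjusted p = 0.00575), and by 0.16 after normexp.

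The 3 release channels of the set that were on the array stayed within 2-fold between tissues. Ryr2, a ryanodine receptor also known from heart muscle, had 1323 and 1385 in depressive and control cerebellum, against 1398 and 1447 in depressive and control prefrontal cortex. The signals were close, and after division by the arrays' 75th percentiles Ryr2 was lower in cerebellum by a fitted log2 difference of -0.46 (SE 0.05, adjusted p = 0.00445). Itpr3, an IP3 receptor, was dim (47.4 to 66.1) and fell by 0.62 (SE 0.16, adjusted p = 0.0342). Itpr2 was not called (-0.15, SE 0.05, adjusted p = 0.0635).

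The pumps held both the largest rise and several falls. Atp2a3, a SERCA pump that is strong in Purkinje cells, had 16008 and 17344 in depressive and control cerebellum, against 161 and 185 in depressive and control prefrontal cortex. The 2 tissues were furthest apart for this gene among the 39, at 74.6-fold higher in cerebellum in depressive rats (6.22, SE 0.05) and 72.8-fold in control rats (6.18, SE 0.05), on 10 spots per array, with an adjusted p of 0.000174. The 5 Purkinje cell markers were all at least 2-fold higher in cerebellum as well, with medians of 5.97 in depressive and 5.69 in control rats and summed signals of 340646 and 337003 in depressive and control cerebellum, against 4060 and 4833 in depressive and control prefrontal cortex, where 1 of the 5 was not well above background in depressive rats. Their part in the result was not tested. The general SERCA pump Atp2a2, bright everywhere, rose by 0.35 (SE 0.06, adjusted p = 0.0126).

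The 4 PMCA pumps, which push calcium out of the cell, were 1 higher and 3 lower in cerebellum by the fit. Atp2b3 had 22959 and 20937 in depressive and control cerebellum, against 6854 and 6095 in depressive and control prefrontal cortex, and was 2.51-fold higher in cerebellum in depressive rats (1.33, SE 0.05) and 2.66-fold higher in control rats (1.41, SE 0.04). Its adjusted p was 0.000572, and the tissues did not overlap. Atp2b1 had 29084 and 27000 in depressive and control cerebellum, against 65344 and 59820 in depressive and control prefrontal cortex, and was 2.99-fold lower in cerebellum in depressive rats (-1.58, SE 0.06) and 2.86-fold lower in control rats (-1.52, SE 0.04). Its adjusted p was 0.000443, and all cerebellum values lay below the cortex values. Atp2b4 was dim, with 56.0 and 70.1 in depressive and control cerebellum, against 148 and 136 in depressive and control prefrontal cortex, and was 3.52-fold lower in depressive rats (-1.82, SE 0.51) and 2.51-fold lower in control rats (-1.33, SE 0.19). Its adjusted p was 0.00268, and after normexp the differences were -1.12 in depressive and -0.94 in control rats, the second under 2-fold. Atp2b2, the pump mutated in the deaf and unsteady deafwaddler mouse, fell by 0.39 (SE 0.05, adjusted p = 0.0064), a call lost with quantile normalization (-0.16, adjusted p = 0.0623).

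TRPC channels are cation channels opened downstream of receptors coupled to phospholipase C. Trpc4 had 38.0 and 41.8 in depressive and control cerebellum, against 1207 and 1165 in depressive and control prefrontal cortex. The cerebellum signals were close to the dim end, 42.3-fold lower in depressive rats (-5.40, SE 0.48) and 35.9-fold lower in control rats (-5.17, SE 0.22), with an adjusted p of 0.000197. After normexp, which adds an offset to dim and bright signals alike, the differences were -3.77 and -3.66. Trpc5 had 44.9 and 63.2 in depressive and control cerebellum, against 124 and 129 in depressive and control prefrontal cortex. It was 3.68-fold lower in depressive rats (-1.88, SE 0.51) and 2.64-fold lower in control rats (-1.40, SE 0.19), with an adjusted p of 0.00238, but -1.05 and -0.94 after normexp, the second under 2-fold. Trpc1, their partner in mixed channels, rose by 0.39 in cerebellum (SE 0.05, adjusted p = 0.00568).

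The tissue differences of the 39 members were alike in both states, with a correlation across genes of 0.997 between the depressive and the control comparison. These genes are not independent replicates, and the 2 comparisons use different arrays. The median size of the change of a member's tissue difference between states was 0.13 on the log2 scale. Only Scn4b, Cacnb2 and Cacng2 had opposite signs in the states, all with differences of 0.20 or less in size. Whether a tissue difference depends on state cannot be tested with 1 array per group.

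Of 59 related genes listed by role in the same pathways (other channel subunits, exchangers, store-operated channels, scaffolds and modulators), 50 were on the array and 38 entered the fit. The fit called 13 higher and 18 lower in cerebellum and left 7 uncalled, where it called 72.8% of all genes (34.7% higher, 38% lower). Homer3, a scaffold of metabotropic glutamate receptors in Purkinje cells, had 1510 and 1695 in depressive and control cerebellum, against 97.2 and 99.8 in depressive and control prefrontal cortex (3.54 and 3.72 in depressive and control rats, adjusted p = 0.000232). Itpr1, the IP3 receptor of Purkinje cells, was very bright at 190355 and 189715 in depressive and control cerebellum, against 65248 and 66099 in depressive and control prefrontal cortex (1.13 and 1.15, adjusted p = 0.000665). Fgf13, a cytosolic partner of sodium channels, fell in cerebellum by 2.70 in the fit (SE 0.05, adjusted p = 0.000223).

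The second comparison asked whether the channels and pumps differ between depressive and control rats within a tissue. None of the 39 members reached 2-fold in either tissue, where 1.74% of all genes in cerebellum (0.763% higher, 0.978% lower) and 0.821% in prefrontal cortex (0.462% higher, 0.359% lower) did. In cerebellum 33 of 39 members were below 0 with a median log2 difference of -0.12, while 60.7% of all genes were below 0 with a median of -0.03. In prefrontal cortex 17 of 39 were below 0 with a median of 0.00, while 52.8% of all genes were below 0 with a median of -0.01. The 6 members above 0 in cerebellum were Scn1a, Cacna1b, Cacna1c, Cacnb4, Atp2b3 and Trpc1.

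The fit of state with tissue as a block called 0 of 38 members at an adjusted p under 0.05, and 0% of all 11624 genes. It treats cerebellum and prefrontal cortex as replicates of a state, with 1 array for each tissue and state and 1 residual degree of freedom. At an unadjusted p under 0.05 it gave 5 members, all lower in depressive rats, and 7.79% of all genes. These were Atp2a3 (unadjusted p = 0.0107), Scn2b (0.0191), Cacna1h (0.0256), Cacng5 (0.044) and Ryr2 (0.0496), each with a limma adjusted p of 0.641. None of them passed the correction.

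**Figure D3:**
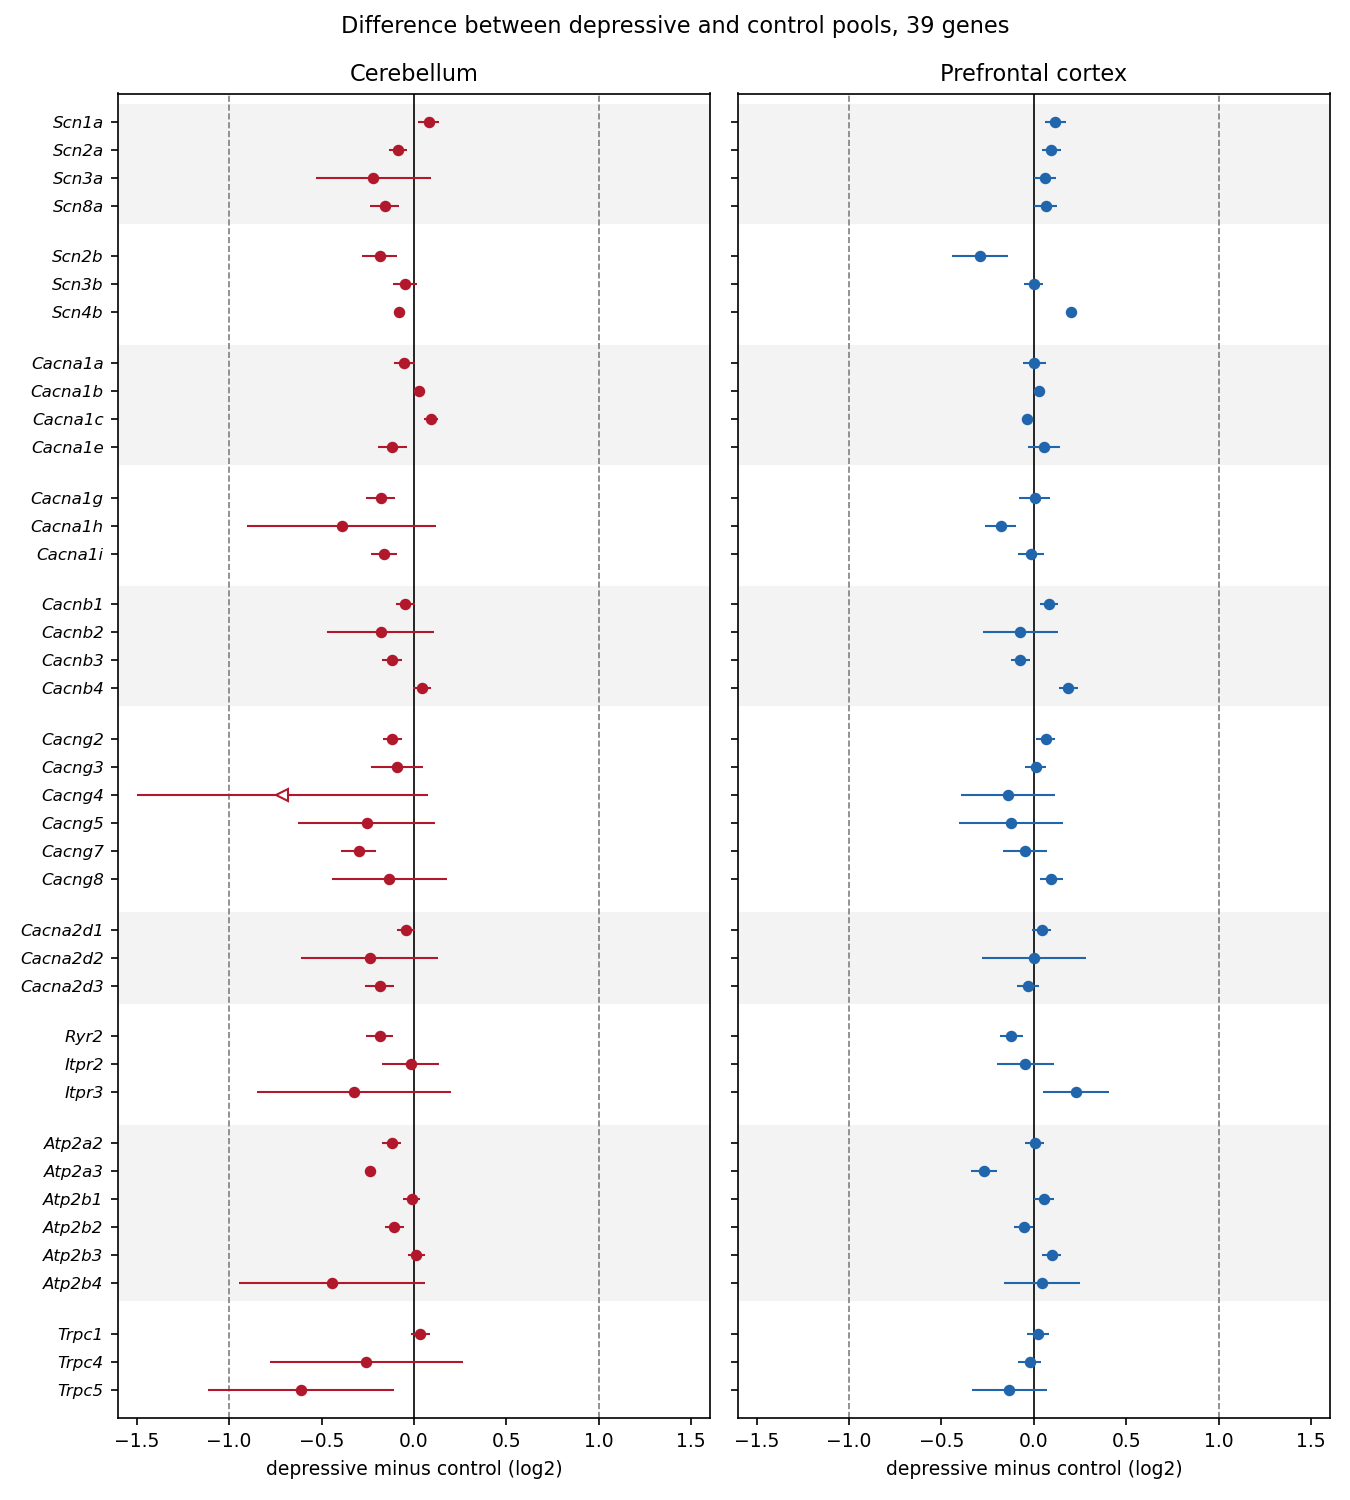
Log2 difference between depressive and control pools in cerebellum (left) and prefrontal cortex (right) for the 39 genes, with bars for the SE between spots, dashed lines at 2-fold and an arrowhead for the bound of Cacng4. All points lie inside the dashed lines, most cerebellum points lie left of 0, and in cerebellum the points furthest from 0 (Cacng4, Trpc5, Atp2b4 and Cacna1h) carry the widest bars or nearly so.

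Atp2a3, shown above with its promoter, had the smallest state p of the members. It had 16008 in depressive against 17344 in control cerebellum, a difference of -0.24 (SE 0.02), and 161 in depressive against 185 in control prefrontal cortex, a difference of -0.27 (SE 0.07). The depressive array was lower in both tissues, by more than the spread between spots, and the fitted difference was -0.25 (SE 0.05). On the same prefrontal cortex arrays all 5 Purkinje cell markers were below 0 with a median of -0.33. Their unscaled summed signals there were 4060 in depressive against 4833 in control rats. In cerebellum all 5 were below 0 with a median of -0.13 after scaling, while their unscaled summed signals were 340646 in depressive against 337003 in control rats. Their part in the values was not tested. Scn2b had 485 in depressive against 507 in control cerebellum (-0.19, SE 0.09) and 218 in depressive against 254 in control prefrontal cortex (-0.29, SE 0.15), lower in depressive rats in both tissues by about 2 SE.

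The members furthest below 0 in cerebellum were dim. Cacng4 had 27.9 in depressive, not well above background, against 42 in control cerebellum, a bound of -0.71 (SE 0.79) on 1 spot. Trpc5 had 44.9 in depressive against 63.2 in control cerebellum, a difference of -0.61 with an SE between spots of 0.50. Atp2b4 had 56.0 in depressive against 70.1 in control cerebellum (-0.44, SE 0.50), and Cacna1h had 85.9 against 104 in the same order (-0.39, SE 0.51). In cerebellum the differences of Cacng4, Atp2b4 and Cacna1h were under 1 SE, and that of Trpc5 was between 1 and 2 SE. In prefrontal cortex Cacna1h was brighter, with 1867 in depressive against 2011 in control rats. Its difference there was -0.18 (SE 0.085), just over 2 SE, on 1 spot per array. The 2 spots per array of Trpc5 and of Atp2b4 did not overlap between the pools, at 42 to 48.1 in depressive against 61.6 to 64.9 in control cerebellum for Trpc5, and at 55.9 to 56.2 against 66.6 to 73.8 for Atp2b4. Itpr3 had 47.4 in depressive against 54.6 in control cerebellum (-0.32, SE 0.52) and turned the other way in prefrontal cortex, with 66.1 in depressive against 53.6 in control rats (0.23, SE 0.18). Cacng7, a TARP, was brighter, with 452 in depressive against 511 in control cerebellum (-0.30, SE 0.09), beyond 2 SE between spots. Its prefrontal cortex values, 335 in depressive against 329 in control rats, differed by -0.05.

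Differences above 0 were small. Cacna1c had 915 in depressive against 790 in control cerebellum (0.09, SE 0.04), and Scn1a had 5182 against 4514 there (0.08, SE 0.06). In prefrontal cortex Scn4b had 10963 in depressive against 9053 in control rats (0.20, SE 0.02), Cacnb4 had 9046 against 7560 (0.19, SE 0.05), and Scn1a had 4686 against 4109 (0.12, SE 0.06). Depressive rats were higher in each of these, all far under 2-fold and with no test behind any single pair. The limma fit gave Cacnb4 a state difference of 0.11 (SE 0.06, unadjusted p = 0.152) and Scn1a one of 0.10 (SE 0.05, unadjusted p = 0.135).

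The cerebellum values lay further below 0 in dim than in bright members, by a split at a signal of 200 that was chosen after the values were seen. Of 11 members with a mean signal under 200 in cerebellum, 11 were below 0 with a median of -0.26, and of all 2997 genes that dim 70.4% were below 0 with a median of -0.14. Of the 28 brighter members, 22 (78.6%) were below 0 with a median of -0.09, while 57.7% of all brighter genes were, with a median of -0.02. The additive error that the scanner software estimates from background was 6.99 on the depressive against 4.03 on the control cerebellum array. It was 4.02 on the depressive against 4.20 on the control prefrontal cortex array. Its part in the cerebellum values was not tested. Marker lists went both ways in cerebellum. All 10 cerebellum markers (median -0.12), all 5 Purkinje cell markers (-0.13), all 4 granule cell markers (-0.04) and all 4 smooth muscle markers (-0.30) were below 0. The Purkinje and granule lists share genes with the cerebellum list. All 5 interneuron markers were below 0 too (-0.07), with Vip a bound, not well above background in depressive rats. Above 0 were all 5 meningeal markers (0.15), all 3 red cell genes (1.74) and 5 of 6 choroid plexus markers (0.67). So were 3 of 4 endothelial (0.07) and 3 of 5 microglial markers (0.12), while 3 of 6 oligodendrocyte markers were (-0.01). In prefrontal cortex 5 of 8 dim members were below 0 with a median of -0.10. Of all 3241 genes that dim there, 45.8% were below 0 with a median of 0.02. Of the 31 brighter members, 12 (38.7%) were below 0 with a median of 0.01, while 55.2% of all brighter genes were, with a median of -0.01.

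**Figure D4:**
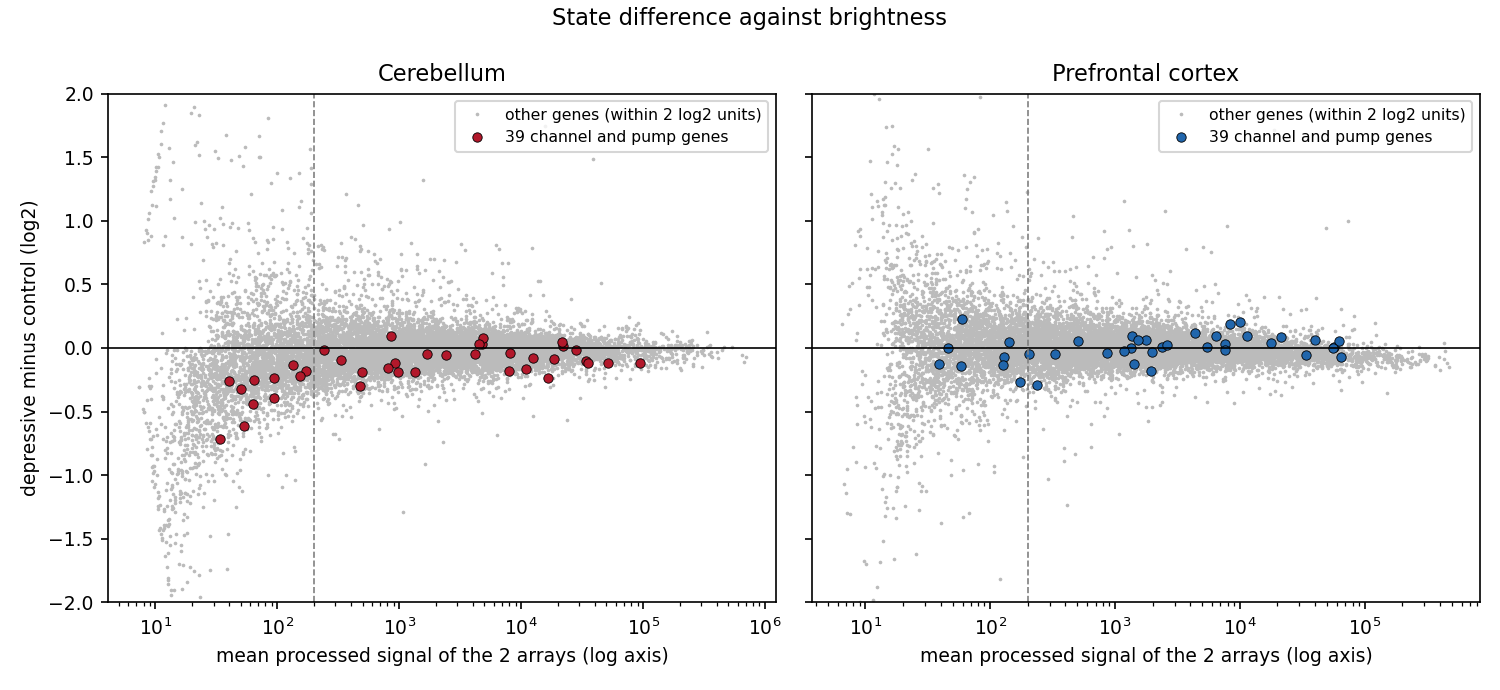
Log2 difference between depressive and control pools against the mean processed signal of the 2 arrays (log axis) in cerebellum (left) and prefrontal cortex (right), for the 39 genes (large points) and all other genes within 2 log2 units (grey), with a dashed line at a signal of 200. In cerebellum the members left of the line all lie below 0, in the lower part of a grey cloud that itself bends down at low signal, and in prefrontal cortex they lie on both sides of 0.

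Markers of other cell types also differed between the pools. All 3 red cell genes were at least 2-fold higher in depressive rats in both tissues, with medians of 1.74 in cerebellum and 1.72 in prefrontal cortex and summed signals of 42450 in depressive against 9778 in control cerebellum, and 49928 in depressive against 12723 in control prefrontal cortex. In prefrontal cortex, where Scn4b and Cacnb4 were above 0, all 6 oligodendrocyte markers were above 0 (median 0.34, summed signals of 513444 in depressive against 465052 in control rats) and all 5 meningeal markers were above 0 (median 0.87, summed signals of 120797 in depressive against 57891 in control rats). No marker of these 3 lists was at background on any array. Choroid plexus markers had a median of 0.67 in cerebellum (5 of 6 above 0, summed signals of 748649 in depressive against 705704 in control rats) and of -1.26 in prefrontal cortex (4 of 5 below 0, summed signals of 6366 in depressive against 25916 in control rats), where Kl was not well above background on either array and Otx2 not in depressive rats. All 4 pituitary markers were below 0 in cerebellum (median -4.29, summed signals of 1146 in depressive against 2328 in control rats), where Gh1, Prl and Cga were not well above background in depressive rats, so that their values are bounds. In prefrontal cortex all 3 pituitary markers with a value were below 0 (median -0.85, summed signals of 1045 in depressive against 1066 in control rats). Gh1, Prl and Cga were not well above background there in depressive rats. The values of Gh1 and Cga, and so the median, are bounds, and Prl had no value. Granule cell markers were below 0 for 3 of 4 in prefrontal cortex (median -0.45), with Gabra6 at -1.30 and Cbln1 at -0.78. Their unscaled summed signals were 12870 in depressive against 12471 in control rats, most of it from Grm4, which was at 0.01. The part of all these markers in the members' values was not tested.

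For 13 members a further probe of the same gene was read as well. Between tissues the brighter and dimmer probe had opposite signs for 1 of 13 in each state, Cacna1i, where the dimmer probe gave -0.12 in depressive and -0.01 in control rats. The median gap between probes was 0.13 in depressive and 0.16 in control rats, and the widest was that of Atp2b4, whose dimmer probe gave -2.71 and -2.30. That probe has 1 spot per array and was not well above background in depressive cerebellum (29.2), so its -2.71 is not a measured difference. Between states the probes disagreed in sign for 4 of 13 members in cerebellum and 7 of 13 in prefrontal cortex. Cacna1c was the widest in cerebellum, with 0.09 on the brighter and -0.34 on the dimmer probe, and Ryr2 the widest in prefrontal cortex, with -0.12 on the brighter and 0.14 on the dimmer probe. For Ryr2, among the 5 members with a low unadjusted p, the dimmer probe was thus above 0 in both tissues (0.17 in cerebellum).

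**Figure D5:**
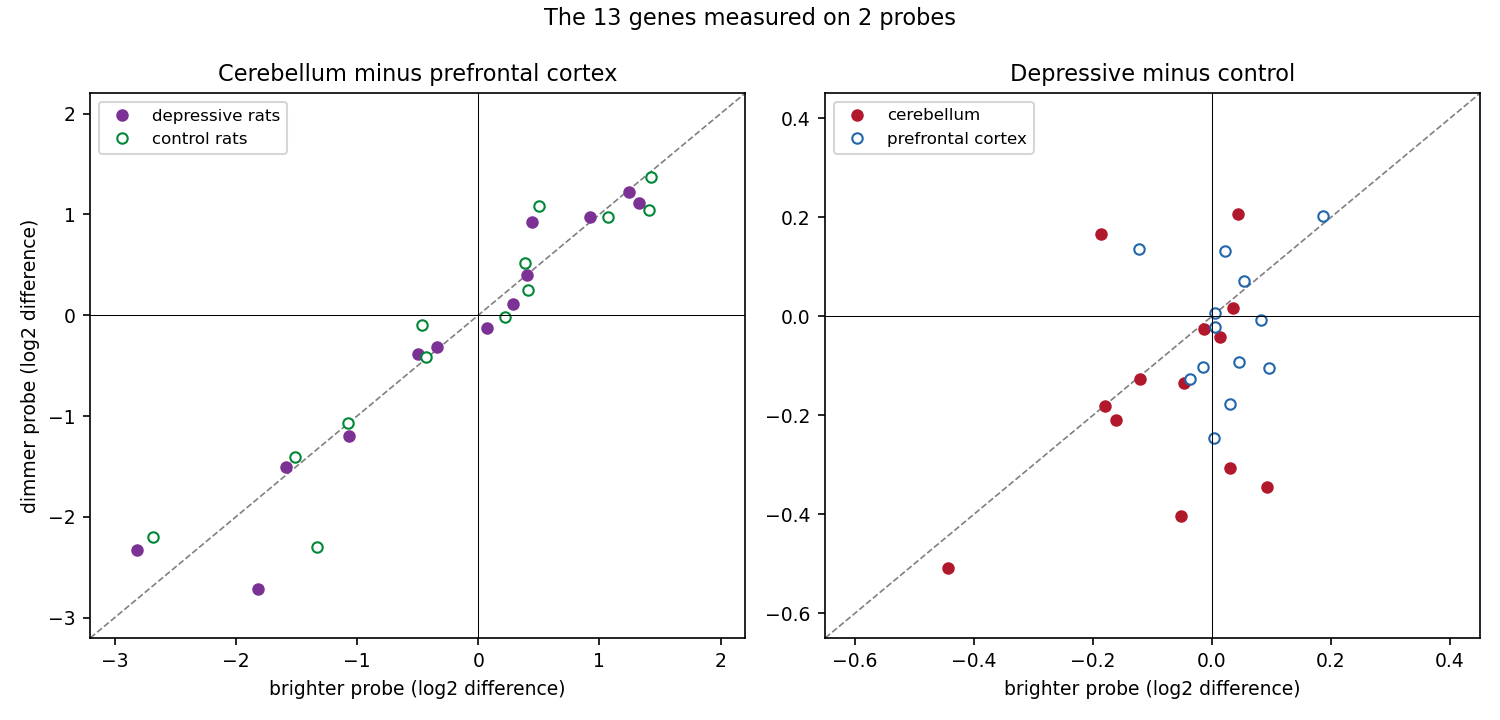
Log2 difference on the dimmer probe against that on the brighter probe for the 13 genes with 2 probes, between tissues in depressive and control rats (left) and between depressive and control pools in each tissue (right), with a dashed line where both are equal. Points follow the line between tissues, with 1 gene of opposite sign in each state, and scatter around 0 between states, with 4 genes of opposite sign in cerebellum and 7 in prefrontal cortex.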

How the data were processed

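RNA of 4 pools was measured on 1-colour Agilent arrays. Spots were quantified by Agilent Feature Extraction (version 10.7.1.1, protocol GE1_107_Sep09, per the file headers). For each spot the deposited scanner files hold quality flags and a processed intensity from which the software had already subtracted background, per the file headers. The deposited value table holds a linear intensity for 23207 probes, with its scale not given in the sources used here. The headers name build rn4, and no coordinates of it are printed.

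Groups were taken from title, source name and characteristics. The description field of the depressive samples names the other tissue. Scanner files were assigned to samples by their correlation with the value table's columns, a choice made with the files seen.

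Control spots and outlier spots were left out, log2 intensity was averaged over a probe's spots, and the array's 75th percentile over gene spots was subtracted. A probe was well above background if at least 50% of its spots carried that flag, and a gene was if any of its named probes was. RefSeq accessions are given for 22031 of the 30367 probes, and 18355 of these matched a gene of RefSeq GRCr8. The brightest probe stood for a gene. If only 1 array of a pair was well above background, the difference is a bound: the dim array was given its lowest signal well above background (5.64 to 8.98 over the arrays) or the probe's own signal, whichever was higher. The SE between spots is that of probes of like brightness in 20 bins.

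limma 3.58.1 (R 4.3.3; lmFit and eBayes, additive in tissue and state) was run on the 11624 genes well above background on all 4 arrays, after tests on simulated data, with Benjamini-Hochberg adjustment over all of them. Its p-values measure only the spread between these arrays, and the number of arrays limits the precision. The alternatives were normexp (offset 50, on the median spot signal, since no mean signal column was used), median scaling, quantile normalization, the mean over probes, outlier spots kept, the value table, the files as linked, other filters on dim genes and fits without a block. Members and gene lists were chosen with earlier results of these data known. Values on every array are given for members at 2-fold between tissues in both states and for the largest differences between depressive and control rats, and the related genes named are among those with large differences. No column of another sample was used.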

Additional observations from a re-analysis of the deposited data

Results flagged for a closer look

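Scn4b, the sodium channel beta subunit of resurgent current, had state differences of opposite sign in the tissues after scaling. Depressive minus control was -0.08 (SE between spots 0.02) in cerebellum and 0.20 (SE 0.02) in prefrontal cortex, a gap of -0.28 on the log2 scale. Seen the other way, cerebellum minus prefrontal cortex was -0.20 (SE 0.02) in depressive and 0.08 (SE 0.02) in control rats, the same gap of -0.28. Both differences of each pair were over 2 SE between spots, on 10 spots per array. The difference between tissues or states was not tested, because each group has 1 array, and the error between spots holds no spread between animals.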

How the results depend on the processing

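The assignment of arrays to samples decides the results. With files as linked, 0 members differed by 2-fold between tissues in depressive rats and 0 in control rats, the tissue fit called 0, and the state fit called 32 (20 higher, 12 lower). Depressive against control then gave 19 members at 2-fold in cerebellum (15 higher, 4 lower) and 19 in prefrontal cortex (16 higher, 3 lower). The linked files swap tissues between these samples, by construction. Under all other alternatives run, the tissue fit called 28 to 33 members, with the fewest where no filter on dim genes was set, 17 to 19 members passed 2-fold between tissues, and 0 passed 2-fold between states. The state fit by limma called 0 members under each of them, and 5 genes of all after normexp. The median of the state difference stayed between -0.13 and -0.09 in cerebellum and between -0.02 and 0.02 in prefrontal cortex. Members below 0 numbered 31 to 36 in cerebellum and 15 to 23 in prefrontal cortex, where 17 were reported and scaling by the median gave 23. Quantile normalization moved the median tissue difference of all genes in depressive rats to 0.06, against -0.06 as reported. Fitted tissue differences changed sign for Cacng5, called higher as reported (0.35), which came to -0.020 after normexp, and for genes that were not called: after normexp Cacnb2 (-0.076) and Cacng2 (0.025), with median scaling Scn4b (0.021) and Cacng2 (0.070), with quantile normalization Scn4b (0.053) and Cacng2 (0.20), and with the value table Cacng2 (0.033). The cause was not tested. Without state as a block the tissue fit called 32. Signal over background limits the members under a signal of 200, whose spot SE reaches 0.51 among those at 2-fold in both states. No paired analysis was possible because each group has 1 array and the labels give no replicate numbers.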

Other observations

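Among the related genes, Sln, which encodes the SERCA inhibitor sarcolipin, had a signal of 11.7 in depressive and 24.4 in control cerebellum, against 866 in depressive and 954 in control prefrontal cortex. It was the 1 related gene that reached 2-fold between depressive and control rats, with a bound of -1.17 on the log2 scale in cerebellum, where its depressive signal was not well above background. Phospholamban (Pln), another SERCA inhibitor, differed between tissues by -1.11 in depressive and -0.62 in control rats (limma adjusted p = 0.0108). Orai3, a pore of store-operated calcium entry, was higher in cerebellum, by 1.46 in depressive and 1.56 in control rats (limma adjusted p = 0.000523). Trpc6 fell in cerebellum by 2.70 in the fit (SE 0.05, adjusted p = 0.000223 by limma), lower there like Trpc4 and Trpc5, whereas Trpc7 was higher there by 0.86 (SE 0.08, adjusted p = 0.00306 by limma). Homer1 fell by 2.23 (SE 0.05, adjusted p = 0.000261 by limma), while Homer3 was higher in cerebellum. Pln, Orai3, Trpc6, Trpc7 and Homer1 were chosen after their values were seen.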
